A study of Mus musculus with 12 samples.

Results

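Replication-dependent histone genes encode the bulk of the H1, H2A, H2B, H3 and H4 proteins that package newly made DNA. They were chosen as the gene symbols that start with Hist1h, Hist2h, Hist3h or Hist4h and that averaged at least 1 TPM over the 12 libraries. TPM is an abundance per transcript length, scaled so that each library sums to the same total. Of 24411 gene symbols, 68 matched and 65 passed the minimum. These were 6 H1 genes, 16 H2A genes, 19 H2B genes, 11 H3 genes and 13 H4 genes. Just inside the minimum stood Hist1h2ba at a mean of 1.14 TPM and Hist2h2be at 6.88 TPM, and just outside it Hist2h2aa2 at 0.889 TPM, Hist2h3c1 at 0.849 TPM and Hist1h2aa at 0.242 TPM.

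Each library held total RNA of NR5A1(+) cells of mouse fetal gonads, made into a library with the SMART-Seq Stranded Kit, which primes with random primers and so does not need a poly(A) tail, and all samples carried the genotype Nr5a1-hCD271, in which the labels tie a surface tag to the gene of the nuclear receptor NR5A1. There were 3 libraries of cultured XY gonads given 150 µM Dfo, the iron chelator deferoxamine, 3 of cultured control XY gonads, 2 of cultured control XX gonads, 2 of E11.5 XY gonads and 2 of E11.5 XX gonads. Cultured gonads were taken at E10.8 with the aorta, mesonephros and mesenchyme attached and spent 19.2 h on filters, in DMEM to which 10% horse serum was added. The same growth and treatment text stands on every sample, the E11.5 and control ones included, so the groups rest on the sample titles. The titles of the E11.5 samples also carry the label WT, which those of the cultured samples do not. The labels do not tie replicates to different embryos, so each p-value covers only the spread among these libraries, which may be technical.

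Replication-dependent histone genes are transcribed as cells enter S phase, under the coactivator NPAT, and supply histones while DNA is copied. Their mRNAs carry no poly(A) tail and end instead in a conserved stem-loop that SLBP, the stem-loop binding protein, holds through processing, export and translation. When DNA synthesis stops, these mRNAs are degraded quickly, whereas replication-independent variants such as H3.3 come from ordinary polyadenylated mRNAs throughout the cycle. In the fetal gonad at the time of sex determination the somatic cells are dividing, and ribonucleotide reductase, which makes the deoxynucleotides for DNA synthesis, is an enzyme that needs iron.

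The stem-loop is the part of these mRNAs that sets them apart from other transcripts, and 5 of the 8 forms found among the genes are shown here, with the 3 most frequent ones included. In the GENCODE M21 transcript models on mm10, the 16-base histone 3′ stem-loop, searched on the transcript's strand with its 6-base stem perfectly paired, was found in 44 of the 65 genes, against 79 of all 55341 genes with transcripts (0.143%). The capitals mark the stem-loop, with 5 bases on either side.
Hist1h1c: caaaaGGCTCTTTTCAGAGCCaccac
Hist2h2aa1: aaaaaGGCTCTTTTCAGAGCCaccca
Hist2h2ac: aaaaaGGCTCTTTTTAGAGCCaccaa
Hist1h2bk: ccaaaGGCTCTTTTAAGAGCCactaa
Hist1h3b: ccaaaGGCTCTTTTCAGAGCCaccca
Hist1h4c: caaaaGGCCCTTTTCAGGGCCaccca
Hist1h4j: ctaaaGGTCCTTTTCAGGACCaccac
The form of Hist1h1c, Hist2h2aa1 and Hist1h3b was held by 24 genes, of types H1, H2A, H2B and H3. The form of Hist1h4c was held by 7 genes, all of type H4, and that of Hist1h2bk by 6 genes. The other 21 genes held no such match in their model, which says only that this pattern is not in the annotated transcript: the model of Hist1h4k, for example, covers 312 bases.

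The genes lie in 3 clusters on mm10, with 1 gene apart from them. The Hist1 cluster on chromosome 13 held 53 of them, the Hist2 cluster on chromosome 3 held 8, Hist3 on chromosome 11 held 3, and Hist4h4 stood alone on chromosome 6. Many copies share sequence, to a degree that differs between types. In the median gene, 47.0% of the 50-base windows of the transcript were also present in another of these genes, with medians of 1.1% in H1, 73% in H2A, 40.1% in H2B, 60.4% in H3 and 39.5% in H4. How reads were divided between copies can therefore change the value of a single copy. Hist1h2bq and Hist1h2br had identical values in every library, Hist3h2bb-ps is annotated as a pseudogene, and Hist1h1e and Hist1h2be overlap on the same strand. Sums over a type are less open to this and are given beside the single genes.

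Together the 65 genes made up 3.27%, 3.31% and 2.41% of all TPM in the Dfo XY libraries, 5.96%, 5.69% and 5.29% in control XY, 3.83% and 3.66% in control XX, 6.38% and 6.38% in E11.5 XY, and 6.42% and 6.63% in E11.5 XX. The 3 Dfo XY libraries were the lowest of the 12, the 2 control XX libraries came next, and the 4 E11.5 libraries were the highest. By type, H2A had the largest sum in every library and H1 ranked last or next to last in all 12. The ratio of summed H2A to summed H4 lay between 1.38 and 1.81 in the 12 libraries, and that of H3 to H4 between 0.613 and 0.884. In a bulk sample fewer cells in S phase and less histone mRNA per cell cannot be told apart.

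**Figure D1:**
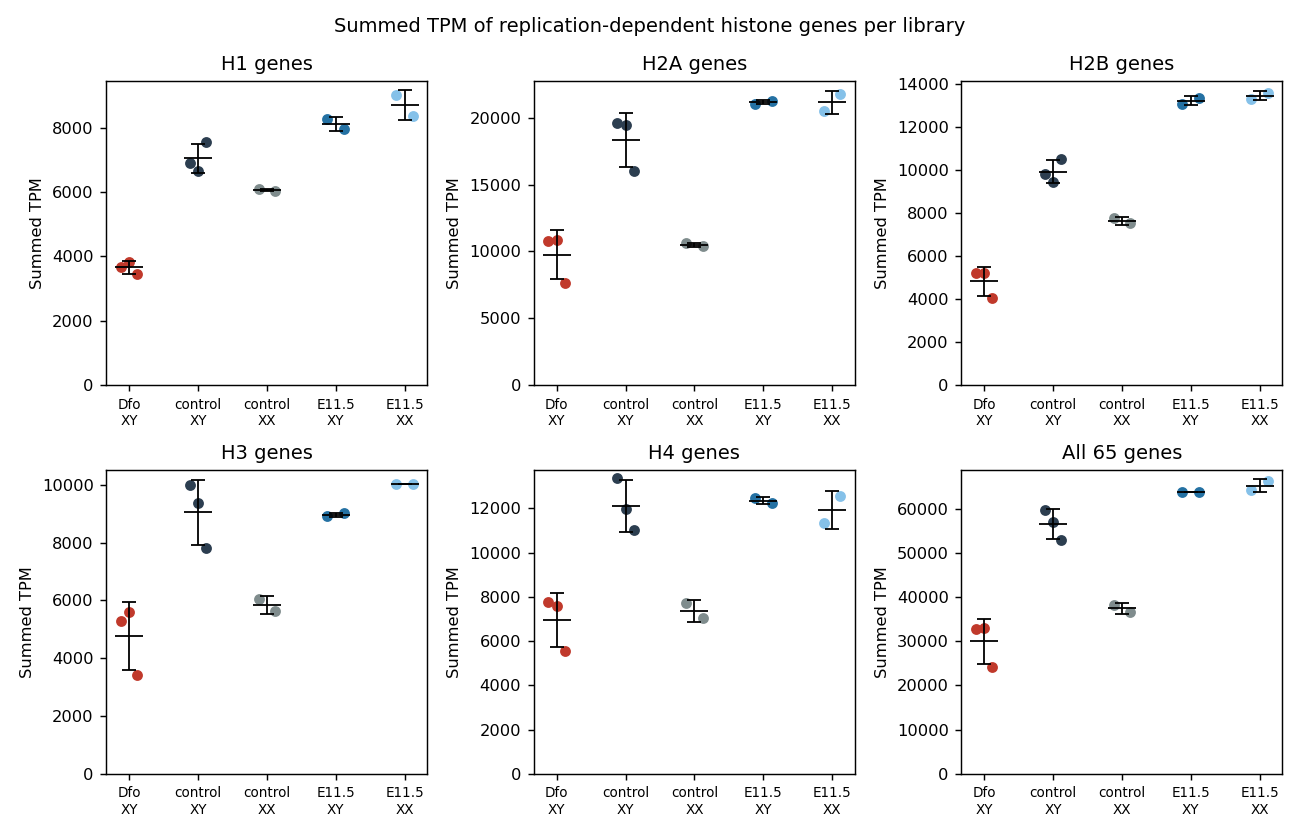
Summed TPM of the genes of each histone type, and of all 65, per library (points), with group mean and SD (bars); the y axes start at 0. In each of the 6 panels the 3 Dfo XY libraries lie below the 3 control XY libraries, with all 65 genes at 24094 to 33087 TPM in Dfo XY and 52879 to 59628 TPM in control XY.

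Levels within a type were spread over many copies. Among H1 genes Hist1h1c and Hist1h1d gave 25.3% and 25.1% of the summed mean, and the testis linker histone Hist1h1t averaged 15.2 TPM. Hist2h2aa1 gave 20.4% of H2A, Hist2h2bb 17.8% of H2B, Hist1h3b 19.6% of H3 and Hist1h4d 24.2% of H4. The sperm-type H2B gene Hist1h2ba was listed at 0 in 8 of the 12 libraries and reached 8.98 TPM in 1 E11.5 XY library.

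Some features of the libraries bear on every comparison. The RNA components of RNase P and RNase MRP, Rpph1 and Rmrp, took a large share of TPM: Rpph1 made up 19.5% to 23.6% in Dfo XY, 15.3% to 20.3% in control XY, 6.96% to 7.20% in control XX, 12.02% to 12.18% in E11.5 XY and 8.57% to 11.47% in E11.5 XX. Since TPM sums to a fixed total, such a share moves all other genes, and the median gene changed by -0.17 on the log2 scale with Dfo and by -0.22 between control XY and control XX. Median-of-ratios scaling set these medians to -0.05 and 0.07 and turned the calls over all genes from 803 higher and 1695 lower to 1520 higher and 1024 lower with Dfo, and from 479 higher and 3585 lower to 529 higher and 499 lower between control XY and control XX. Dfo XY replicates 1 and 2 held 13.6 and 24.6 TPM of Xist, the RNA of the inactive X, against 0.28 TPM in replicate 3 and at most 0.18 TPM in control XY, so their Dfo results are also given without them. Control XY replicates 1 and 2 shared 330 identical values above 0 among all 24411 gene symbols, the most of any pair within a group. A fit with these 2, and Dfo XY replicates 1 and 2, averaged is given too. Nr5a1 itself was present in every library, at 78.9 to 239 TPM.

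Dfo XY against control XY asks what iron chelation did to the XY gonad. The replication-dependent histone genes fell across all 5 types. Limma on log2(TPM + 1), with Benjamini-Hochberg adjustment over the 16133 genes with at least 1 TPM in at least 2 libraries, called 57 of the 65 lower in Dfo XY, where 10.5% of all genes tested were called lower. It called 0 higher, against 4.98% of all genes, and 0 were higher at an unadjusted p below 0.05. The median log2 change of the 65 genes was -0.93, and that of all genes -0.17. In 59 of the 65 every Dfo XY library lay below every control XY library, which held for 26.5% of all genes. Log2(TPM + 1) understates the change of low genes.

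**Figure D2:**
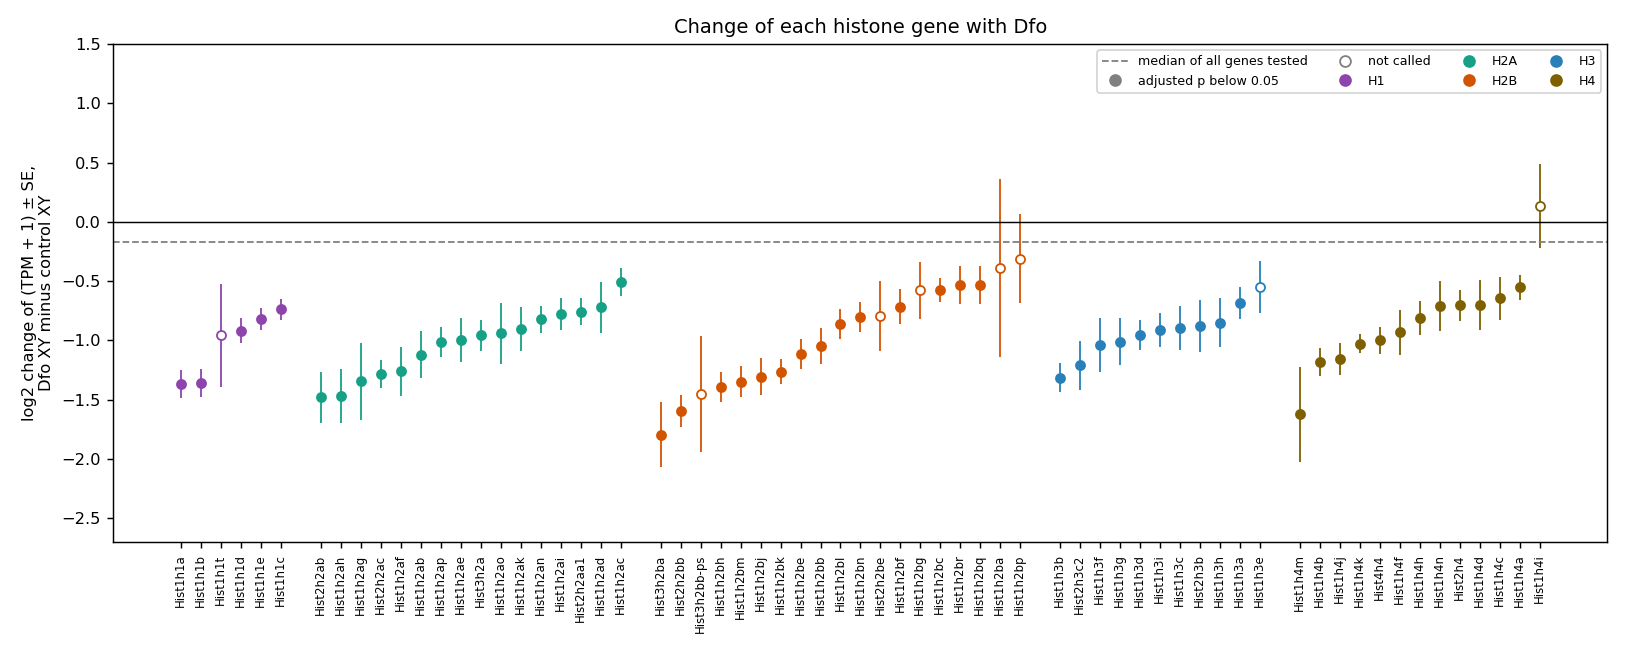
Log2 change of (TPM + 1), Dfo XY minus control XY, ± SE from limma (y axis) for each of the 65 genes (x axis), grouped by type and ordered by change; filled points had an adjusted p below 0.05 and the dashed line is the median of all genes, -0.17. All points but Hist1h4i lie below the dashed line, and the 8 open points are the genes not called.

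The summed TPM of all 65 genes was 29955 ± 5080 in Dfo XY and 56481 ± 3397 in control XY (SD, n = 3 each), a ratio of 0.530. The sums were 0.519 of control XY for H1, 0.532 for H2A, 0.486 for H2B, 0.525 for H3 and 0.575 for H4, and in no type did the groups overlap. Dfo XY replicate 3 had the lowest sum of every type, and without Dfo XY replicates 1 and 2 the log2 ratio of the overall sum was -1.23, against -0.91 with them. The value without them rests on 1 Dfo XY library, so no spread can be taken from it. The median log2 change of all genes was -0.05 without them.

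The H1 linker histones bind the DNA between nucleosomes, and 5 of the 6 were called lower. Hist1h1a had 343, 356 and 303 TPM in Dfo XY and 814, 749 and 1052 TPM in control XY. Hist1h1b had 351, 362 and 356 TPM in Dfo XY and 855, 814 and 1101 TPM in control XY. The highest Dfo XY library of each stood below the lowest control XY library. Their log2 changes were -1.37 ± 0.12 (SE, limma adjusted p = 9.60e-06) and -1.36 ± 0.12 (SE, limma adjusted p = 9.48e-06). Hist1h1c had 1089, 1191 and 1028 TPM in Dfo XY and 1825, 1787 and 1896 TPM in control XY, a change of -0.74 ± 0.09 (SE, limma adjusted p = 1.44e-04). Hist1h1d changed by -0.92 and Hist1h1e by -0.82. Hist1h1t stood at 2.44, 5.47 and 3.32 TPM in Dfo XY and at 6.14, 4.49 and 16.9 TPM in control XY, where the groups overlapped and it was not called (log2 -0.96 ± 0.43, SE).

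H2A pairs with H2B in the outer part of the nucleosome core, and all 16 H2A genes were called lower, with log2 changes between -1.48 and -0.51. Hist2h2aa1, the most abundant of the 65, had 2488, 2457 and 1947 TPM in Dfo XY and 3906, 3982 and 3708 TPM in control XY, a change of -0.76 ± 0.11 (SE, limma adjusted p = 8.03e-04). Hist2h2ac had 595, 674 and 496 TPM in Dfo XY and 1505, 1444 and 1321 TPM in control XY, a change of -1.28 ± 0.12 (SE, limma adjusted p = 1.89e-05). Neither gene's groups overlapped. The smallest H2A change was that of Hist1h2ac, with 1064, 1013 and 816 TPM in Dfo XY and 1499, 1329 and 1277 TPM in control XY (log2 -0.51 ± 0.12, SE, limma adjusted p = 0.0115), a call lost with median-of-ratios scaling, quantile normalization, averaging, or without control XY replicate 1. Hist1h2ai had 1367, 1249 and 1015 TPM in Dfo XY and 2173, 2274 and 1764 TPM in control XY (log2 -0.78 ± 0.13, SE) and Hist1h2ap had 848, 961 and 769 TPM in Dfo XY and 1804, 1707 and 1669 TPM in control XY (log2 -1.01 ± 0.13, SE), and both were called. In Hist1h2ag, named after its values were seen, Dfo XY replicate 3 stood apart at 103 TPM, against 291 and 301 TPM in the other Dfo XY libraries and 386 to 627 TPM in control XY.

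Of the H2B genes, 14 of 19 were called lower. Hist2h2bb, the most abundant, had 572, 572 and 549 TPM in Dfo XY and 1520.5, 1469.9 and 2233 TPM in control XY, a change of -1.60 ± 0.13 (SE, limma adjusted p = 8.67e-06). Hist1h2bk had 509.5, 509 and 427 TPM in Dfo XY and 1059, 1087 and 1335 TPM in control XY (log2 -1.26 ± 0.11, SE, limma adjusted p = 9.64e-06). Hist1h2bh had 128, 147 and 98.3 TPM in Dfo XY and 331, 353 and 291 TPM in control XY (log2 -1.39 ± 0.13, SE, limma adjusted p = 2.10e-05). In all 3 genes every control XY library stood above the highest Dfo XY library. Hist3h2ba, the H2B gene of the chromosome 11 cluster, had the deepest change of the 65, with 70.0, 63.0 and 27.7 TPM in Dfo XY and 186, 192 and 150.1 TPM in control XY (log2 -1.80 ± 0.27, SE, limma adjusted p = 9.27e-04). Hist1h2bc, at 758, 705 and 733 TPM in Dfo XY and 979, 1028 and 1288 TPM in control XY, changed least among the 4 most abundant H2B genes (log2 -0.57 ± 0.10, SE, limma adjusted p = 0.00305), and its call was lost without Dfo XY replicates 1 and 2. Hist1h2bn, the other of the 4, had 665, 623 and 482 TPM in Dfo XY and 1106, 1011 and 947 TPM in control XY (log2 -0.80 ± 0.13, SE, called lower). The H2B genes not called were Hist1h2ba, Hist1h2bg, Hist1h2bp, Hist2h2be and Hist3h2bb-ps, with log2 values of -0.39, -0.58, -0.31, -0.79 and -1.45.

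H3 and H4 form the inner tetramer of the nucleosome core. Of the H3 genes, 10 of 11 were called lower. Hist1h3b had 640.3, 785 and 530.3 TPM in Dfo XY and 1619, 1470.5 and 1727 TPM in control XY, a change of -1.31 ± 0.13 (SE, limma adjusted p = 2.53e-05). Hist2h3c2 had 824, 738 and 440.4 TPM in Dfo XY and 1790.4, 1598 and 1161 TPM in control XY (log2 -1.21 ± 0.21, SE, limma adjusted p = 0.00203). The groups did not overlap in either. Hist2h3b had 720.0, 736 and 388 TPM in Dfo XY and 1264, 1235 and 819 TPM in control XY and was called (log2 -0.88 ± 0.22, SE), although control XY replicate 3 stood near the upper Dfo XY libraries. Its call was lost with median-of-ratios scaling, with quantile normalization, with only the groups compared, with averaging, and without control XY replicate 1 or replicate 2. Hist1h3e was the H3 gene not called: it had 1014, 1105 and 562.5 TPM in Dfo XY and 1519, 1355 and 959.8 TPM in control XY, so that 2 Dfo XY libraries stood above control XY replicate 3 (log2 -0.55 ± 0.22, SE).

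Of the H4 genes, 12 of 13 were called lower. Hist1h4k had the smallest adjusted p of the 65, with 804, 782 and 797 TPM in Dfo XY and 1575, 1570.4 and 1725 TPM in control XY (log2 -1.03 ± 0.08, SE, limma adjusted p = 4.95e-06). Hist1h4d, the most abundant H4 gene, had 2310, 2188 and 1284 TPM in Dfo XY and 3599, 3186 and 2434 TPM in control XY (log2 -0.70 ± 0.21, SE, limma adjusted p = 0.0392). The tight values of Hist1h4k and the wide ones of Hist1h4d both left the groups apart. Hist1h4h had 1193, 1140.2 and 854 TPM in Dfo XY and 2083, 1791 and 1688 TPM in control XY (log2 -0.81 ± 0.14, SE), and Hist1h4n had 689.5, 677 and 412 TPM in Dfo XY and 1160.0, 1007 and 724 TPM in control XY (log2 -0.71 ± 0.21, SE), both called lower. The calls of Hist1h4d and Hist1h4n were close to the threshold: both were lost with no filter, under 4 of 5 other scalings, with only the groups compared, with averaging, and without any one of control XY replicates 1 and 2, Dfo XY replicate 3 and the 4 E11.5 libraries. Hist1h4i was the gene of the 65 with a positive value, 72.4, 40.1 and 70.3 TPM in Dfo XY and 58.9, 56.1 and 46.7 TPM in control XY, with overlapping groups and no call (log2 0.13 ± 0.36, SE). Its sign turned to -0.01 without Dfo XY replicate 1.

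Features beyond the type were set beside the change, with no test. The median log2 change was -0.96 in the 44 genes with the stem-loop in their model, of which 39 were called lower, and -0.88 in the 21 without it, of which 18 were. It was -0.91 in the 30 genes of the distal part of the Hist1 cluster and -0.91 in the 23 of its proximal part, -1.04 in the 8 of Hist2 and -1.45 in the 3 of Hist3. Hist1h1c, Hist1h2bc, Hist2h2be, Hist4h4, Hist3h2a and Hist3h2ba have been reported, in human cells or mouse, to give polyadenylated mRNA as well. Of these, 5 of 6 were called lower, with a median of -0.88. Hist4h4, which lies outside the clusters, had 408, 430 and 355 TPM in Dfo XY and 798, 684 and 916 TPM in control XY (log2 -1.0003 ± 0.1147, SE, limma adjusted p = 1.12e-04).

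The promoters of 4 of the 8 genes with the smallest adjusted p, 1 H1, 2 H2B and 1 H4, show how the upstream sequence differs between types whose mRNAs fell together. Each line gives the 150 bases before the RefSeq start on GRCm38.p6, 5′ to 3′ on the gene's strand, and the capitals mark the TATA box TATAAA, the CCAAT box and the octamer ATTTGCAT, on either strand.
Hist1h1a, chr13:23763518-23763667, plus strand: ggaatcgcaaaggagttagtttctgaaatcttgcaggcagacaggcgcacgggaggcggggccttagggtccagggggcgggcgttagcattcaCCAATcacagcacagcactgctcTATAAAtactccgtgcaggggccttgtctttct
Hist2h2bb, chr3:96269550-96269699, plus strand: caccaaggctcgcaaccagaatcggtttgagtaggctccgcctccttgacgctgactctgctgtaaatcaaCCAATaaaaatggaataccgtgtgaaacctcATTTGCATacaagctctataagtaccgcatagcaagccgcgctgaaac
Hist1h2bk, chr13:22035671-22035820, plus strand: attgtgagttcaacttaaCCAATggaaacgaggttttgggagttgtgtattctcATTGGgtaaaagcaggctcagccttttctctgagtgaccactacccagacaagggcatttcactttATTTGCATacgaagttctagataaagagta
Hist1h4k, chr13:21750554-21750703, minus strand: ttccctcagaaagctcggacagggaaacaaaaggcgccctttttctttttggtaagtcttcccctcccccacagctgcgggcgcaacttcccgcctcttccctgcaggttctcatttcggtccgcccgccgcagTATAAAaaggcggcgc
Of the 65 genes, 64 matched 1 RefSeq gene and 58 had a promoter in the RefSeq table. In the 250 bases before the start, CCAAT stood in 48 of the 58 (33.9% of all 32851 promoters in the table), TATAAA in 28 (12.4%) and the octamer ATTTGCAT in 12 (1.60%). The octamer was in 6 H2A and 6 H2B promoters and in 0 of the H1, H3 and H4 ones, and CCAAT was in 3 of 12 H4 promoters against all 15 H2A and all 16 H2B ones. A match describes the letters and does not show binding.

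**Figure D3:**
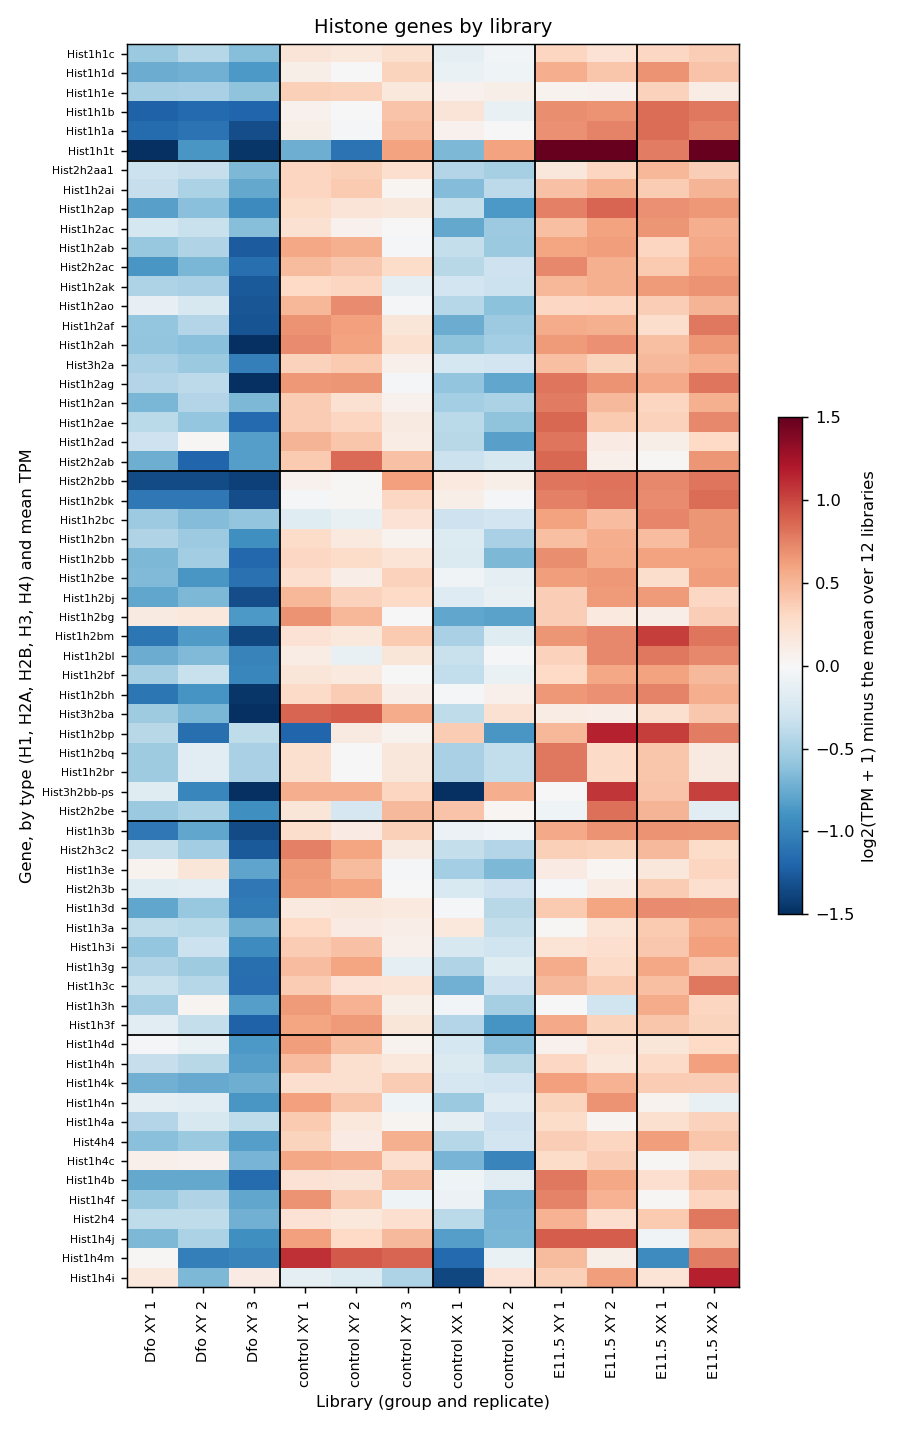
Log2(TPM + 1) of each gene in each library minus its mean over the 12 libraries (colour, blue low, red high, ends of the scale at 1.5), for the 64 genes at a mean of at least 5 TPM, by type and mean level. The 3 Dfo XY columns are blue in almost every row, the control XX columns are mostly pale blue, and the control XY and E11.5 columns are mostly red.

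Most genes that act on histone mRNA were not called. SLBP, encoded by Slbp, had 89.4, 88.6 and 114 TPM in Dfo XY and 87.5, 91.2 and 122 TPM in control XY (log2 -0.04 ± 0.14, SE, limma adjusted p = 0.888). Npat had 17.2, 19.1 and 20.0 TPM in Dfo XY and 18.1, 18.3 and 18.0 TPM in control XY (log2 0.05 ± 0.13, SE, limma adjusted p = 0.850). The groups overlapped for both, and the sign of Slbp turned under 4 of 5 other scalings. Of 32 genes for the transcription and processing of histone mRNA, 1 was called higher, Ccne2, and 5 lower, Snrpb, Snrpd3, Cpsf3, Ncbp2 and E2f4; the median was -0.06, and it was 0.09 with median-of-ratios scaling, which called 6 higher and 2 lower. Ccne2, a cyclin E that drives entry into S phase, had 16.1, 16.4 and 24.5 TPM in Dfo XY and 9.97, 7.96 and 11.8 TPM in control XY (log2 0.87 ± 0.23, SE, limma adjusted p = 0.0247). Ccne1, its paralogue, had a log2 value of -0.28 ± 0.20 (SE) and was not called.

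Most genes of DNA synthesis were not called either. Of 55 S phase genes, 1 was called higher, Ccne2 again, and 2 lower, the origin recognition subunit Orc1 and the clamp loader subunit Rfc2. Their median was -0.12, and it was 0.03 with median-of-ratios scaling and 0.24 without Dfo XY replicates 1 and 2. Pcna, the sliding clamp of the replication fork, had 164, 183 and 238 TPM in Dfo XY and 133, 152 and 195 TPM in control XY (log2 0.29 ± 0.15, SE, limma adjusted p = 0.244). Rrm1 and Rrm2, the subunits of ribonucleotide reductase, had log2 values of 0.02 ± 0.14 and -0.04 ± 0.16 (SE, limma adjusted p = 0.944 and 0.888), and their signs turned between scalings. A p that misses the threshold does not show that these levels were equal. Of 36 genes of G2 and mitosis, 16 were called lower, where 10.5% of all genes were. Among them were Ccnb2 with a log2 change of -1.59 ± 0.20 (SE, limma adjusted p = 2.48e-04) and Ube2c with -1.10 ± 0.09 (SE, limma adjusted p = 9.97e-06). Fewer were called without Dfo XY replicates 1 and 2, but 1 Dfo XY library was then left and fewer of all genes were called lower too.

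**Figure D4:**
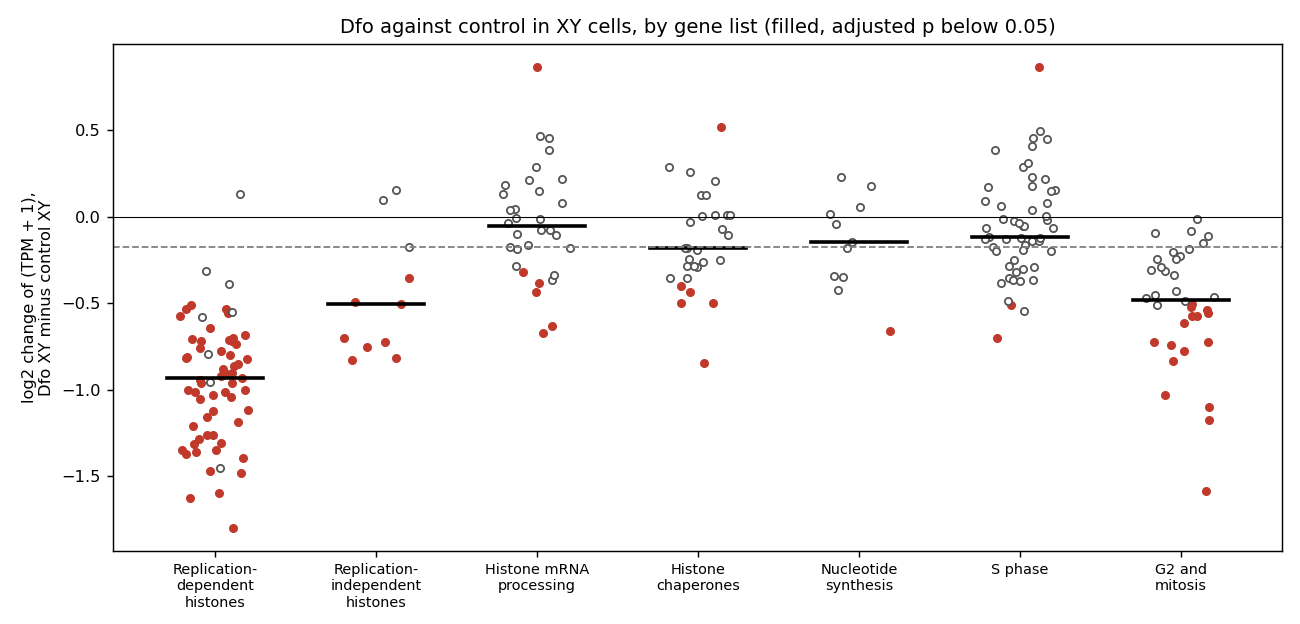
Log2 change of (TPM + 1), Dfo XY minus control XY (y axis), of the 65 histone genes and of the tested genes of 6 other lists; filled points had a limma adjusted p below 0.05, thick bars are medians and the dashed line is the median of all genes, -0.17. The median of the replication-dependent histones is -0.93, that of the replication-independent histones -0.51 and that of S phase genes -0.12.

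Of 11 genes tested from a list of replication-independent histones and variants, 8 were called lower and 0 higher, with a median of -0.51. Median-of-ratios scaling called 6 lower and 1 higher. H2afy, H2afj and H3f3b were not called, with log2 values of -0.18, 0.10 and 0.15. H2afx, the H2A variant phosphorylated at DNA breaks, had 133, 124 and 104 TPM in Dfo XY and 227, 237 and 179 TPM in control XY (log2 -0.83 ± 0.11, SE, limma adjusted p = 4.67e-04). H3f3a, one of the genes of H3.3, had 1160, 1138 and 1044 TPM in Dfo XY and 1418, 1458 and 1392 TPM in control XY (log2 -0.35 ± 0.08, SE, limma adjusted p = 0.0146). H3f3b, the other H3.3 gene, had 592, 614 and 637 TPM in Dfo XY and 523, 490.2 and 655 TPM in control XY, with overlapping groups and no call (log2 0.15 ± 0.10, SE). A ratio within a library does not depend on the scaling: summed H3 over summed H3f3a and H3f3b was 3.01, 3.19 and 2.02 in Dfo XY, below 5.14, 4.82 and 3.81 in control XY, with 3.19 and 2.68 in control XX, 4.62 and 4.58 in E11.5 XY and 5.59 and 5.15 in E11.5 XX. Of 29 histone chaperones, which carry histones to chromatin, 1 was called higher, Rbbp7, and 5 lower. Of 21 checkpoint and arrest genes 5 were called higher, Cdkn1a, Ccng1, Btg2, Gadd45a and Gadd45b, and 3 lower, Cdkn1c, Ccnd1 and Ccnd3. Cdkn1a, the cyclin-dependent kinase inhibitor p21, had 54.3, 47.3 and 87.9 TPM in Dfo XY and 23.6, 17.9 and 22.2 TPM in control XY (log2 1.49 ± 0.21, SE, limma adjusted p = 6.07e-04), with every Dfo XY library above every control XY library.

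Several lists of cell type markers moved beside this result, among them that of the gonadal somatic cells, which holds Nr5a1. Of all genes tested, 10.5% were called lower and 4.98% higher. Of 12 mesenchyme genes 6 were called lower, with summed levels of 611 to 712 TPM in Dfo XY and 936 to 994 TPM in control XY. Of 12 gonadal somatic genes 4 were called lower, with sums of 681 to 771 TPM in Dfo XY and 863 to 1058 TPM in control XY, and of 11 neural crest genes 3 were called lower and 1 higher, with sums of 155 to 182 TPM in Dfo XY and 219 to 285 TPM in control XY. Of 12 germ cell genes 2 were called lower, with sums of 25.2 to 37.3 TPM in Dfo XY and 46.6 to 49.5 TPM in control XY, and of 12 mesonephric epithelium genes 3 were called lower, with sums of 169 to 271 TPM in Dfo XY and 290 to 346 TPM in control XY. Of 14 macrophage genes 0 were called, with overlapping sums of 147 to 228 TPM in Dfo XY and 111 to 204 TPM in control XY. Of 13 endothelial genes 1 was called higher and 0 lower, with overlapping sums of 142 to 233 TPM in Dfo XY and 101 to 205 TPM in control XY. Erythroid sums overlapped, at 1393 to 3234 TPM in Dfo XY and 330.5 to 2551 TPM in control XY. At most 2 genes of any marker list were at 0 throughout a group. The part of these cells in the histone result was not tested. The 169 other genes whose longest transcript had at most 600 bases had a median of -0.27.

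Control XY against control XX gives the sex difference in culture. Histone genes were higher in XY, against the trend of all genes in the deposited TPM. That trend depends on the scaling: median-of-ratios scaling called 529 of all genes higher and 499 lower, with a median of 0.07. Limma called 41 of the 65 higher in control XY, where 2.97% of all genes were called higher, and 0 lower, where 22.2% of all genes were; 0 were lower at an unadjusted p below 0.05. The median log2 difference was 0.67, and that of all genes -0.22. In 53 genes both control XX libraries lay below all 3 control XY libraries, which held for 12.3% of all genes. The same control XY libraries serve as the reference for Dfo, so the comparisons are not independent.

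The counts by type were unequal, and the inequality was not tested. The difference was called in 15 of 16 H2A genes, 12 of 13 H4 genes, 6 of 11 H3 genes, 7 of 19 H2B genes and 1 of 6 H1 genes. The H1 count was 5 with median-of-ratios scaling and 0 with quantile normalization. The summed TPM in control XY was 1.75 times that in control XX for H2A, 1.65 times for H4, 1.55 times for H3, 1.30 times for H2B and 1.16 times for H1, and no type's groups overlapped. Over all 65 genes the sums were 56481 ± 3397 TPM in control XY (SD, n = 3) and 37428 ± 1174 TPM in control XX (SD, n = 2).

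Hist1h4j showed the smallest adjusted p, with 324, 261 and 296 TPM in control XY and 118 and 130.4 TPM in control XX (log2 1.23 ± 0.15, SE, limma adjusted p = 5.81e-04). Hist1h4c had 918, 892 and 726 TPM in control XY and 378 and 307 TPM in control XX (log2 1.30 ± 0.20, SE, limma adjusted p = 0.00155). Hist1h4k had 1575, 1570.4 and 1725 TPM in control XY and 1112 and 1087 TPM in control XX (log2 0.56 ± 0.09, SE, limma adjusted p = 0.00170). In each of these H4 genes the control XX libraries lay well below the lowest control XY library. Hist2h2aa1, at 3906, 3982 and 3708 TPM in control XY and 2295 and 2215 TPM in control XX, was the most abundant gene with a difference (log2 0.78 ± 0.13, SE, limma adjusted p = 0.00189). Hist2h2bb and Hist1h1b, both called with Dfo, had overlapping groups here. Hist2h2bb had 1520.5, 1469.9 and 2233 TPM in control XY and 1609 and 1545 TPM in control XX (log2 0.12 ± 0.15, SE, limma adjusted p = 0.597). Hist1h1b had 855, 814 and 1101 TPM in control XY and 936 and 752 TPM in control XX (log2 0.13 ± 0.13, SE, limma adjusted p = 0.510).

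This count rests on few libraries. Leaving out control XY replicate 1 gave 18 and replicate 2 gave 20, and averaging replicates 1 and 2 of control XY and Dfo XY gave 18. Calls higher over all genes fell in these fits too, from 479 to 235, 218 and 151. Fewer histone genes and fewer of all genes were also called higher without either control XX replicate, which left 1 library in that group. Rescaling without Rpph1 and Rmrp gave 48 called higher, where 543 of all genes were. S phase genes stood the other way in this comparison, with 20 of 55 called lower in control XY and a median of -0.48, and median-of-ratios scaling called 0 of them, with a median of -0.18.

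Several other features differed between the same libraries. Rpph1 was higher in control XY by 1.36 and Rmrp by 0.97 on the log2 scale, and the 169 other short genes had a median of 0.45. Of 12 mesonephric epithelium genes 6 were called higher in control XY, with sums of 290 to 346 TPM in control XY and 231 to 263 TPM in control XX. Of 11 neural crest genes 7 were called higher, with sums of 219 to 285 TPM in control XY and 141 to 172 TPM in control XX. Of 14 macrophage genes 4 were called higher, with sums of 111 to 204 TPM in control XY and 69.3 to 97.5 TPM in control XX, and 6 of 12 gonadal somatic genes were called lower, with sums of 863 to 1058 TPM in control XY and 1577 to 1647 TPM in control XX. Of 11 erythroid genes 4 were called higher, with a median of 1.16 and sums of 330.5 to 2551 TPM in control XY and 243 to 272 TPM in control XX. Of 12 mesenchyme genes 1 was called higher and 4 lower, with sums of 936 to 994 TPM in control XY and 1319 to 1402.5 TPM in control XX. The part of these in the histone difference was not tested.

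E11.5 XY against E11.5 XX gives the sex difference in gonads at that stage. Here histone genes stood close to each other in the sexes. Limma called 1 of the 65 higher in XY, where 1.09% of all genes were called higher, and 0 lower, where 1.2% were; at an unadjusted p below 0.05, 2 were higher and 2 lower. The median log2 difference was -0.05. The summed TPM was 63804 ± 54.4 in E11.5 XY and 65258 ± 1469 in E11.5 XX (SD, n = 2 each), a ratio of 0.978, and the sign of this small difference turned under median-of-ratios scaling. The gene called was Hist1h4j (log2 0.73 ± 0.17, SE, limma adjusted p = 0.0449). It had 397 and 397 TPM in E11.5 XY and 203 and 281 TPM in E11.5 XX. Of the other settings, 16 did not call it and 7 did. The H3 genes were the type that leaned most to XX, with 10 of 11 lower in XY, none of them called, and a summed TPM in XY of 0.894 of that in XX.

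The interaction tests whether the sex difference in culture differed from that at E11.5. Limma called it in 2 of the 65 genes, both more XY-biased in culture, where 0.192% of all genes were called in that direction. It called 0 the other way, where 1.14% of all genes were called. At an unadjusted p below 0.05, 36 were positive and 0 negative. The share of all genes at that threshold was not counted, so these 36 have nothing to be set against. Hist2h2aa1 had 3501 and 3885 TPM in E11.5 XY and 4398 and 4043 TPM in E11.5 XX, against the XY excess in culture given above, and its interaction was 0.97 ± 0.19 (SE, limma adjusted p = 0.0326). Hist4h4 had 798, 684 and 916 TPM in control XY and 468 and 516 TPM in control XX, and 813 and 790.02 TPM in E11.5 XY and 971 and 843 TPM in E11.5 XX, with an interaction of 0.87 ± 0.19 (SE, limma adjusted p = 0.0488). For both genes XY stood above XX in culture and below it at E11.5, where XY and XX were not called different. The median interaction of the 65 genes was 0.64, against -0.26 for all genes. The count was 16 without Dfo XY replicate 3 and 7 without control XY replicate 3. Of all genes, 68 and 91 were called more XY-biased in culture in these fits, against 31 in the main fit. It was 0 without any other Dfo XY or control XY library, where 4 to 10 of all genes were called so. Leaving out a control XX or E11.5 library left 1 in its group, and fewer histone genes and fewer of all genes were then called so.

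**Figure D5:**
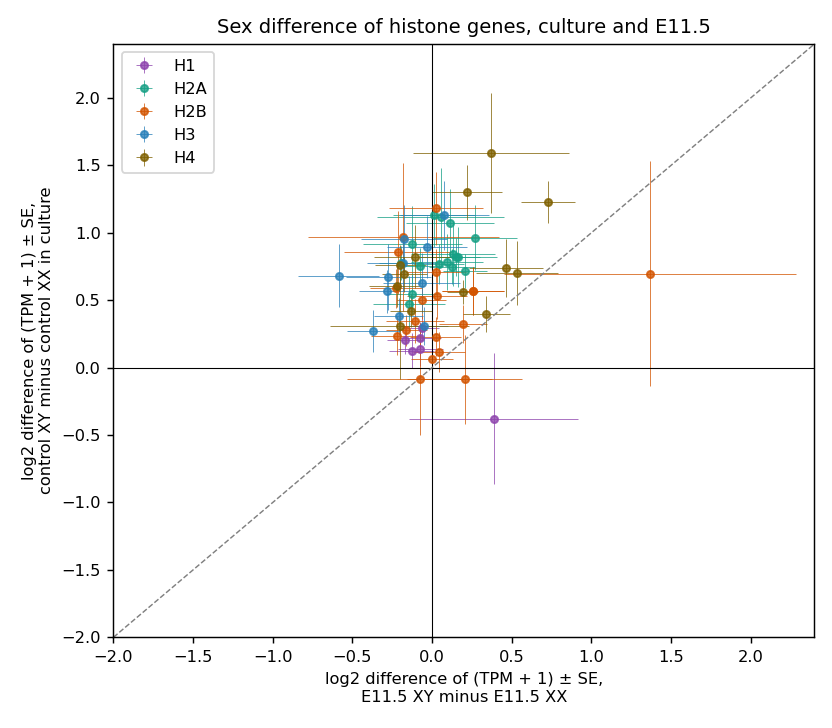
Log2 difference of (TPM + 1), XY minus XX, in cultured controls (y axis) and at E11.5 (x axis) for each of the 65 genes, ± SE from limma, coloured by type; the dashed line marks equal differences. Most points lie above the dashed line, with medians of 0.67 in culture and -0.05 at E11.5. Of the type medians on the y axis, that of H1 is nearest to 0, at 0.17, though single H2B genes lie nearer.

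Cultured controls against E11.5 differ in both stage of collection and culture, which cannot be told apart. In XX the histone genes were lower in culture. Limma called 42 of the 65 lower in control XX than in E11.5 XX, where 1.71% of all genes were called lower, and 0 higher, where 7.36% were, with 0 higher at an unadjusted p below 0.05. The median log2 difference was -0.80, against 0.12 for all genes, and in 60 genes both control XX libraries lay below both E11.5 XX libraries, which held for 13.8% of all genes. By type 4 of 6 H1, 12 of 16 H2A, 13 of 19 H2B, 6 of 11 H3 and 7 of 13 H4 genes were called. The summed TPM in control XX was 0.496 of that in E11.5 XX for H2A, 0.569 for H2B, 0.584 for H3, 0.617 for H4 and 0.697 for H1.

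Hist1h2ac had 747 and 876 TPM in control XX and 2017 and 1855 TPM in E11.5 XX (log2 -1.26 ± 0.14, SE, limma adjusted p = 2.94e-04). Hist1h2ap had 1164 and 819 TPM in control XX and 2385 and 2342 TPM in E11.5 XX (log2 -1.27 ± 0.15, SE, limma adjusted p = 4.41e-04). Hist1h2bc had 890.4 and 908 TPM in control XX and 1846 and 1747 TPM in E11.5 XX (log2 -0.997 ± 0.127, SE, limma adjusted p = 6.67e-04). In all 3 the higher control XX library was below the lower E11.5 XX library. Fitted on these 4 libraries alone, limma called 0 of the 65 and 0 of all genes. Fewer of the 65 were called lower without either control XX replicate or without E11.5 XX replicate 2. Each of these fits had 1 library in a group and also called fewer of all genes lower. Of 13 endothelial genes 7 were called lower in control XX, with sums of 148 to 163 TPM in control XX and 402 to 469 TPM in E11.5 XX, and erythroid sums were 243 to 272 TPM in control XX and 1334.5 to 1860.5 TPM in E11.5 XX; their part was not tested.

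In XY the difference from E11.5 was small for H3 and H4 and larger for H2B. The summed TPM in control XY was 0.750 of that in E11.5 XY for H2B, 0.8675 for H2A and 0.868 for H1, where the groups did not overlap. It was 1.01 for H3 and 0.981 for H4, where they did. Limma called 7 of the 65 lower in control XY than in E11.5 XY, where 3.04% of all genes were called lower, and 0 higher, where 2.62% were. At an unadjusted p below 0.05, 23 were lower and 3 higher, with no share of all genes counted at that threshold. The median was -0.24, against -0.11 for all genes, and the sums were 56481 ± 3397 TPM in control XY (SD, n = 3) and 63804 ± 54.4 TPM in E11.5 XY (SD, n = 2), a ratio of 0.885. The genes called were Hist1h1a, Hist1h1b, Hist1h1t, Hist1h2ap, Hist1h2bc, Hist1h2bk and Hist2h2bb, 3 of them H1 and 3 H2B. Hist1h2bk had 1059, 1087 and 1335 TPM in control XY and 1813 and 1870 TPM in E11.5 XY (log2 -0.67 ± 0.12, SE, limma adjusted p = 0.00836). Hist1h2bc had 979, 1028 and 1288 TPM in control XY and 1685 and 1530.4 TPM in E11.5 XY (log2 -0.56 ± 0.12, SE, limma adjusted p = 0.0178). Their groups did not overlap. Other lists moved beside these genes. Of 36 genes of G2 and mitosis 20 were called lower in control XY, with a median of -0.63, and of 55 S phase genes 3 were. Of 11 neural crest genes 5 were called higher, with sums of 219 to 285 TPM in control XY and 99.6 to 104 TPM in E11.5 XY. Of 14 macrophage genes 4 were called higher, with sums of 111 to 204 TPM in control XY and 37.0 to 55.5 TPM in E11.5 XY. Of 13 endothelial genes 3 were called lower, with sums of 101 to 205 TPM in control XY and 303 to 311 TPM in E11.5 XY. The part of these in the histone difference was not tested. The count of histone genes was 11 without Dfo XY replicate 3 and 1 without control XY replicate 1 or replicate 2. Of all genes 714, 90 and 88 were called lower in these fits, against 491 in the main fit. Without either E11.5 XY replicate, which left 1 library in that group, fewer histone genes and fewer of all genes were called lower. The difference between XY and XX in this comparison is the same contrast as the interaction, which called 2 genes.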

How the data were processed

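RNA of NR5A1(+) cells was sequenced in 12 libraries of 5 groups, assigned by sample title. The deposited TPM values were made by the authors with STAR 2.7.10b, RSEM and R 4.1.2 on mm10, per the submitters' processing notes; neither the annotation nor the strand setting of the counting is named there. Depth is unknown, since TPM keeps no counts. The files held 0 columns of per-sample values beyond the 12 libraries.

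TPM was tested as log2(TPM + 1) with limma 3.58.1 in R 4.3.3 (trend), all libraries in 1 fit, on 16133 genes with at least 1 TPM in at least 2 libraries, two-sided, with Benjamini-Hochberg adjustment within each comparison and calls at an adjusted p below 0.05. The fit was tested on simulated data. Summed TPM per type has no test. The main fit had no block, so its p-values are unpaired. Same-numbered Dfo XY and control XY libraries deviated together (r = 0.26, 0.14 and 0.37 for numbers 1, 2 and 3). For this reason, from the data alone, an alternative fit took the numbers as pairs. Numbers 1 and 2 are not told apart from each other by this. The r was 0.19 for Dfo XY 1 with control XY 2 and 0.17 for Dfo XY 2 with control XY 1. Number 3 is told apart, with r of -0.21 to -0.31 with other numbers. The fit with a replicate block called 60 histone genes and 2671 of all genes lower. Genes named are the 4 most abundant of each type, those with the smallest adjusted p in each comparison (up to 8 per direction with Dfo, otherwise up to 3), members near the TPM minimum or in the polyadenylation and germline lists, and up to 3 called genes per direction of other lists; further genes were chosen after their values were seen. Genes and lists were chosen with earlier results of these data known. Alternatives changed the pseudocount, filter, scaling, samples in the fit, block and single libraries. Promoters are from RefSeq (GRCm38.p6) and transcripts from GENCODE M21.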

Additional observations from a re-analysis of the deposited data

Results flagged for a closer look

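The difference between XY and XX in cultured controls differed from that at E11.5 in 2 of the 65 histone genes by the limma interaction, with the larger XY excess in culture in both, where 0.192% of all genes were called in that direction and 1.14% in the other. The interaction was 0.97 for Hist2h2aa1 and 0.87 for Hist4h4 on the log2 scale of TPM + 1. Both values rest on 2 XX libraries per stage. The count was 0 with no filter, with only the groups compared and with averaging, where 20, 4 and 4 of all genes were called in that direction. With 1 Dfo XY or control XY library left out it was 0, except without Dfo XY replicate 3 (16) or control XY replicate 3 (7). Of all genes, 68 and 91 were called in that direction in those fits, against 31 in the main fit. Fewer histone genes and fewer of all genes were called so when 1 control XX or E11.5 library was left out.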

How the results depend on the processing

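With Dfo, the count of histone genes called lower stayed between 45 and 60 under every alternative run, 42 genes were called lower under all of them, and the range with 1 library left out was 45 to 58. The replicate block, which pairs the samples there, gave 60, where 2671 of all genes were called lower, against 1695 in the main fit. Averaging gave 45, where 519 of all genes were. With 1 Dfo XY or control XY library left out, calls lower over all genes ran from 948 to 1573. Dfo sums moved without Dfo XY replicates 1 and 2, to log2 -1.26 for H2A, -1.29 for H2B, -1.41 for H3, -1.13 for H4 and -1.23 for all; H1 was -0.79 with median-of-ratios scaling and -0.80 with quantile normalization.

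In the other comparisons replicates share only a number (r between -0.06 and 0.06), and the replicate block called 0 for control XY against control XX, 0 for control XX against E11.5 XX, 0 for E11.5 XY against E11.5 XX and 5 for control XY against E11.5 XY. In the first 3 it also called 0 of all 16133 genes, so those counts say nothing of the histone genes in particular. Control XY against control XX gave 18 with replicates averaged and 17 to 47 with 1 library left out; its overall sum was 0.93 with median-of-ratios scaling, 0.87 without the 50 most abundant genes and 0.83 without Rpph1 and Rmrp. E11.5 XY against E11.5 XX gave 0 with a pseudocount of 0.1, median-of-ratios scaling, quantile normalization, rescaling without Rpph1 and Rmrp, only the groups compared, and averaging, and 0 to 1 with 1 library left out; its sum reversed to 0.013 with median-of-ratios scaling and 0.0089 without the 50 most abundant genes. Control XY against E11.5 XY gave 4 with no filter, 3 under each of 4 scalings, 0 with only the groups compared or averaging, and 0 to 11 with 1 library left out; its sum was -0.074, -0.051 and -0.039 in the order of scalings given for control XY against control XX, and reversed to 0.014 with quantile normalization. Control XX against E11.5 XX gave 0 with only the groups compared and 17 to 51 with 1 library left out; its sum was -0.99, -0.91 and -0.86 in that order, and -0.71 with quantile normalization. The interaction gave 0 with no filter, only the groups compared or averaging, 1 when rescaled without the histone genes, and 0 to 16 with 1 library left out. The causes were not tested.

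Single genes reversed with Dfo as follows. Over the fits with 1 library left out, Hist1h2ba ran between -0.74 and 0.31 (without control XY replicate 3), and Hist1h4i between -0.013 (without Dfo XY replicate 1) and 0.41. Rrm1 was -0.020 rescaled without the histone genes and ran between -0.13 and 0.16 with 1 library left out. Rrm2 was 0.11, 0.0016, 0.053 and 0.041 with median-of-ratios scaling, quantile normalization, and rescaling without the 50 most abundant genes or without Rpph1 and Rmrp, 0.023 with averaging, 0.39 without Dfo XY replicates 1 and 2, and between -0.26 and 0.10 with 1 library left out. Slbp was 0.11, 0.00305, 0.059 and 0.047 under the same scalings, 0.196 without Dfo XY replicates 1 and 2, and between -0.15 and 0.11 with 1 library left out. Rescaling without Rpph1 and Rmrp and without the histone genes was chosen after seeing the data.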
